A study of Mus musculus with 6 samples.

Results

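The 38 genes described here encode chaperones of the cytosol and the endoplasmic reticulum (ER), with their closest regulators, measured by bulk RNA-seq in mouse OT-I CD8 T cells. They were taken by symbol from a list of heat shock and unfolded protein response genes, chosen with earlier results of the same count tables in view, so the values below are a description and their counts are not independent evidence. The 38 genes are among 49671 in the tables, and all 38 were among the 13996 genes that passed the filter on low counts. For the account they fall into 6 classes, which are the inducible HSP70 pair Hspa1a and Hspa1b, 14 other cytosolic chaperones and co-chaperones, the 2 heat shock factors Hsf1 and Hsf2, the 2 subunits Hspe1 and Hspd1 of the mitochondrial chaperonin, which work neither in the cytosol nor in the ER, 14 ER chaperones and folding enzymes, and 4 genes of the ER stress response and ER degradation (Xbp1, Edem1, Sel1l and Herpud1).

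OT-I cells carry a transgenic T cell receptor for the SIINFEKL peptide of ovalbumin. All libraries came from primary OT-I CD8 T cells labelled as naive and as splenocytes, given SIINFEKL on antigen-presenting cells, and harvested at 48 h. Each of the 3 groups, BiTS, BiTS(mut) and isotype control, has 2 libraries, and the study asks how their transcriptomes differ under these agents. BiTS is a bispecific T cell silencer that brings the inhibitory receptor LAG-3 close to the T cell receptor. What is changed in BiTS(mut) is not given in the sources used here, nor whether the libraries came from separate mice or cultures, so the spread between libraries may be technical. The sample titles number the libraries. BiTS replicate 2, BiTS(mut) replicate 2 and isotype replicate 4 have the title numbers 6, 5 and 4 and are called the second set here, and BiTS replicate 1, BiTS(mut) replicate 1 and isotype replicate 1 have 3, 2 and 1 and are called the first set. The labels do not say what these numbers mark.

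Chaperones bind unfolded stretches of proteins and help them fold, assemble or be degraded. In the cytosol, heat shock factor 1 binds heat shock elements, which are inverted repeats of the unit GAA, and switches on inducible chaperones such as Hspa1a and Hspa1b, while Hspa8 and Hsp90ab1 are made at all times. In the ER, unfolded proteins release the HSP70 Hspa5 (BiP) from the sensors Ern1 (IRE1), Atf6 and Eif2ak3 (PERK), and the factors Atf6 and spliced Xbp1 then act on promoters with an ER stress element to raise ER chaperones. Activated T cells grow quickly and make secreted proteins, and the unfolded protein response is known to be engaged in them.

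The promoters of the list are shown first because they describe its classes without use of the counts. The 250 bases before the annotated start come from RefSeq (GRCm38.p6), which held 32 of the 38 genes. Hspa8, Hsp90aa1, Hsp90ab1, Hsf1, Manf and Hyou1 were missing from it, so their promoters were not searched for any motif. The windows of Hspa1a (chr17:34972157-34972406) and Hspa1b (chr17:34959239-34959488), both on the minus strand, are printed 5′ to 3′ on the gene's strand. Capitals mark GAANNTTC, which is the unit GAA followed by its inverted repeat.
Hspa1a: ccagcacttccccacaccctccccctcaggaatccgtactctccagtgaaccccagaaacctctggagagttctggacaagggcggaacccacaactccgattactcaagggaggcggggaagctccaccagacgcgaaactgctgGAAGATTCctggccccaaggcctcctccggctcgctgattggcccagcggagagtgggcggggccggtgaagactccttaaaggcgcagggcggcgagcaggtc
Hspa1b: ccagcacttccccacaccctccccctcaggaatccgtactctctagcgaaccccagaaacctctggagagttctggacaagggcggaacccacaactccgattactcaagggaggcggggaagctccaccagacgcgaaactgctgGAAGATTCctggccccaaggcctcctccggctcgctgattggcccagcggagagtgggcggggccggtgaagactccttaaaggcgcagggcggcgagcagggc
These windows were the same at 247 of 250 bases. Each held 1 GAANNTTC, starting 104 bases before the start, and 1 CCAAT box, starting 67 bases before it. The sequence GAANNTTC, which reads the same on both strands, stood at the start nearest the gene's start in the count tables in 5 of the 32 members, which were both genes of the pair, Hspb1, Dnaja1 and Hspe1. Many genes have more than 1 RefSeq start, and the shares over all genes count a motif at any of them. By that count GAANNTTC stood in 7.73% of the 27025 genes in the RefSeq table and in 6 members, the sixth being Hspd1 at another start. The other phase, TTCNNGAA, stood at the nearest start in Hsph1 and Hspe1, and at any start in 8.12% of genes and in 4 members, with Dnajb4 and Hspd1 added. A run of 3 units, GAA and TTC in turn with 2 free bases between them, stood on either strand at the nearest start in Hspe1 alone, and at any start in 0.514% of genes and in 2 members, Hspe1 and Hspd1. In Hspe1 the overlapping runs began 89 and 84 bases before the start, and each is printed on the strand that reads GAA first, with the units in capitals.
Hspe1, run at 89 bases: GAAggTTCtaGAA
Hspe1, run at 84 bases: GAAccTTCcgGAA
No ER chaperone and no gene of the ER stress and degradation class among the 32 held GAANNTTC or TTCNNGAA at any start. Only exact units were searched, so a gene without a match may still hold an element with a changed base.

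The ER stress element (CCAAT, 9 free bases, then CCACG, on either strand) divided the list the other way. It stood at any start in 0.13% of all genes and in 7 members, in each at the nearest start too, and those 7 were ER chaperones or folding enzymes. They are Hspa5, Hsp90b1 (an HSP90 of the ER), the lectin chaperones Calr and Canx, the disulphide isomerase Pdia6, the HSP70 partner Dnajc3, and Creld2. Their elements are printed on the strand that reads CCAAT first, with the fixed letters in capitals.
Hspa5: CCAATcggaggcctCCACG
Hsp90b1, nearer element: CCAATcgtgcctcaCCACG
Hsp90b1, farther element: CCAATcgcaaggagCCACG
Calr: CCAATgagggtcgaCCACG
Canx: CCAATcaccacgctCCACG
Pdia6: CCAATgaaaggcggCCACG
Dnajc3: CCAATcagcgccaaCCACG
Creld2: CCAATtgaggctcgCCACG
The Hspa5 element lies at chr2:34772025-34772043 and begins 65 bases before the annotated start. The Canx element lies at chr11:50325800-50325818 and begins 145 bases before it. The nearer and the farther element of Hsp90b1 begin 107 and 212 bases before its start. These matches are a description of the sequence, and no binding was measured. Only this form with exact letters was searched, so a gene without a match may hold another form. The ER genes were listed as genes of the unfolded protein response, so the division of the list is not independent of that choice.

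Libraries held between 10813123 and 15239077 gene counts, so that 3 counts, the limit that a count of 0 allows, equal 0.197 to 0.277 CPM (counts scaled to a common library total), a limit that covers counting error only. The 10 CD8 T cell markers, such as Cd3e and Cd8a, summed to between 2700.3 and 2904 CPM in the 3 libraries of the second set and to between 2239 and 2639 CPM in the first. Of the 18 dendritic cell markers, 17 had counts and Siglech was at 0 in every library. They summed to 1466, 1646 and 1554 CPM in BiTS, BiTS(mut) and isotype of the second set, against 2456, 2997 and 3060 CPM in the first. Ccr7 (425 to 782 CPM) and Cd74 (300 to 859 CPM) were the largest entries of these sums. Of the 16 markers tested, 15 were lower in the second set by log2 fold change, as were 6767 of all 13996 genes tested. Batf3 was higher (0.36 ± 0.07). The RNA thus held transcripts of most of these markers in every library, and for most of those tested more in the first set. Bulk RNA does not show which cells a transcript came from, so these sums need not be dendritic cell RNA alone. Nor can fewer cells of a type and less RNA per cell be told apart in it. The part of these transcripts in the results below was not tested. NK cell markers summed to between 171.5 and 221.7 CPM, with Nkg7 (133.8 to 170.7 CPM) as the largest entry. B and plasma cell markers summed to between 70.5 and 113.7 CPM, with Ighm (53.4 to 93.0 CPM) as the largest entry. Macrophage and monocyte markers summed to at most 52.9 CPM, stromal markers to at most 24.2 CPM, and the neutrophil and erythroid lists to at most 0.811 CPM.

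Most of the list was abundant and steady, and the inducible pair was neither. Levels are set beside each other as CPM per kilobase of the gene length in the tables. Hsp90ab1, the constitutive HSP90 of the cytosol, was the most abundant member, with a median of 1521 CPM per kilobase over the 6 libraries. The constitutive HSP70 Hspa8 followed with 470.4, then the more inducible HSP90 gene Hsp90aa1 with 290.0 CPM per kilobase. Calr and Hsp90b1 headed the ER class with 204.1 and 191.4 CPM per kilobase, ahead of Hspa5 with 130.7. The pair stood at ranks 33 (Hspa1b, median 7.46 CPM per kilobase) and 34 (Hspa1a, 6.31) of 38, and their values overlapped. The J protein Dnajb9, the HSP110 relative Hspa4l and the J protein Dnajb4 lay below them, with medians of 5.11, 3.93 and 2.10 CPM per kilobase. Last came Hspb1, a small heat shock protein, with counts of 5, 3 and 2 in BiTS, BiTS(mut) and isotype of the second set and 12, 15 and 3 in the first. In 3 of the libraries these are at or under the floor of 3 counts, and no fold is given for Hspb1.

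**Figure D1:**
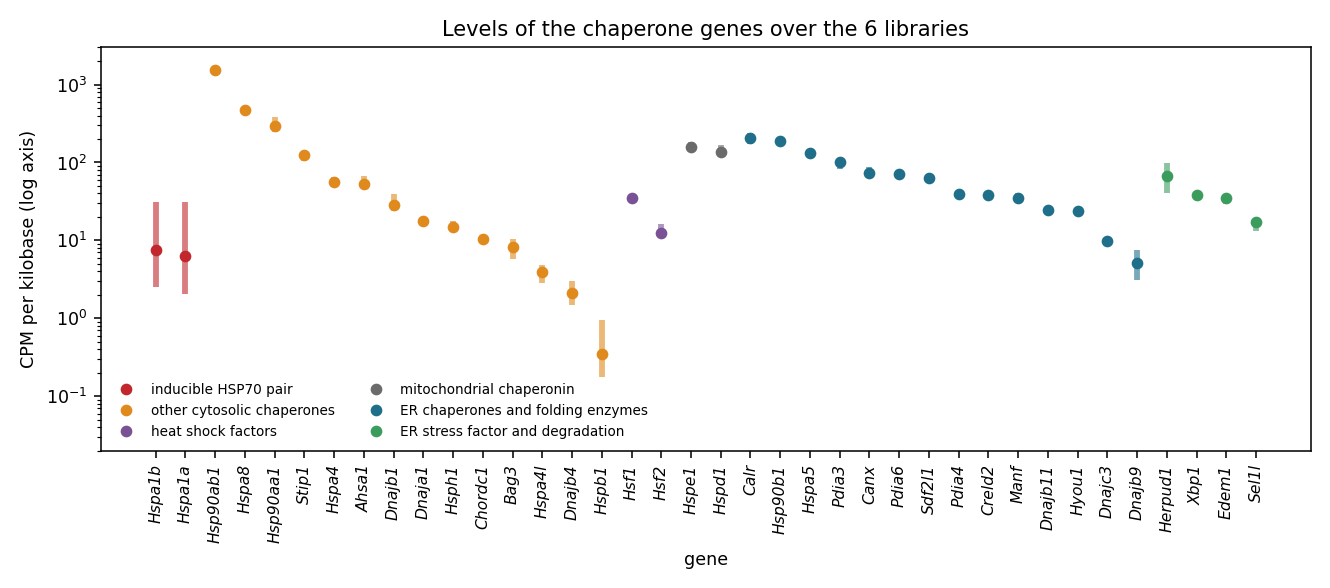
Level of each of the 38 genes in CPM per kilobase (log axis), grouped and coloured by class. Points are medians over the 6 libraries and bars run from the lowest to the highest library. Hsp90ab1 is at the top (median 1521) and the pair has the longest bars, from 2.03 to 31.1 for Hspa1a.

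The widest swing in the list belonged to the inducible pair. Hspa1a, which encodes an HSP70 that is almost silent in many unstressed cells, had 13.3, 6.02 and 7.20 CPM in BiTS, BiTS(mut) and isotype of the second set, against 92.3, 46.7 and 24.1 CPM in the first set. Hspa1b, its neighbour on chromosome 17 with nearly the same protein, had 15.3, 7.08 and 8.65 CPM in the second set, against 87.4, 52.6 and 26.6 CPM in the first. In both genes every library of the second set lay below every library of the first, and within each set the BiTS library was the highest. The highest CPM was 15.3 times the lowest for Hspa1a and 12.4 times for Hspa1b. After TMM scaling these ratios were 15.1 and 12.2, against a median of 1.57 over the 13967 tested genes with a count in every library, of which 0.251% and 0.422% had a larger ratio. The other 36 members ran from 1.06 to 5.31, with a median of 1.30, and the top of that range is Hspb1 with its few counts.

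**Figure D2:**
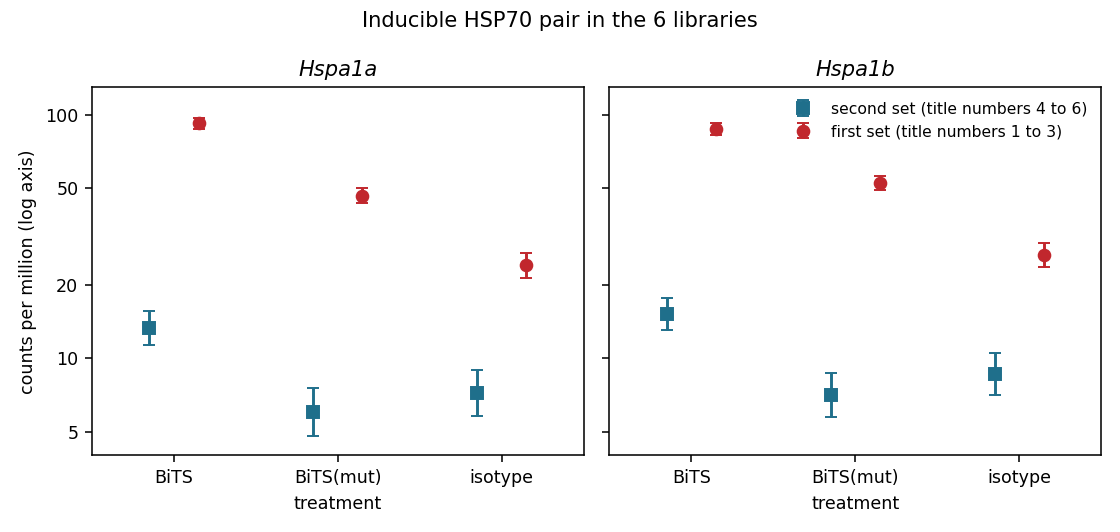
CPM (log axis) of Hspa1a and Hspa1b in each library, by treatment, with the second set as squares to the left and the first set as circles to the right. Bars are 95% Wilson intervals, which cover counting error only. For Hspa1a the second set spans 6.02 to 13.3 CPM and the first 24.1 to 92.3 CPM.

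The counts of the pair cannot be fully separated. Of all 100-base stretches in the GENCODE transcripts, 47.1% of those of Hspa1a and 49.9% of those of Hspa1b also occur in the other gene, and how the authors' counter treated reads that match both is not given in the sources used here. Hspa1a took between 45.5% and 51.4% of the summed counts of the pair in the 6 libraries, and their sum carries the same pattern. Shared reads may have been divided between the genes, so this share cannot show that both moved. The sum was 28.6, 13.1 and 15.8 CPM in BiTS, BiTS(mut) and isotype of the second set, against 179.8, 99.3 and 50.7 CPM in the first. Among other members, Hspb1 (44.0%), Hsp90aa1, Hspa8 (28.5%), Hspd1 (23.9%), Dnaja1 (16.6%) and Hspe1 share the most 100-base stretches with pseudogenes or neighbours, so their levels are uncertain in the same way. Hspe1 and Hspd1 also overlap head to head.

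Between the sets, with treatment in the model, Hspa1a was lower in the second set by a log2 fold change of -2.52 ± 0.13 (SE, 3 libraries a set) and Hspa1b by -2.35 ± 0.13. Of the 38 members, 5 were called higher and 16 lower in the second set by edgeR's quasi-likelihood test at an adjusted p under 0.05, where 25.9% of all tested genes were called higher and 26.9% lower. The sets thus differed across much of the transcriptome, and nothing is read from the number of members called. The size sets the pair apart from its classmates as a description. The class median was -2.43 for the pair, 0.03 for the other cytosolic chaperones and -0.08 for the ER chaperones and folding enzymes, against 0.02 over all genes tested. The difference was present in each treatment, at -2.76, -2.92 and -1.67 on the log2 scale for Hspa1a and at -2.48, -2.86 and -1.54 for Hspa1b in BiTS, BiTS(mut) and isotype. These values lie farther apart than an SE of 0.13 implies, since the SE draws mostly on the spread of all tested genes.

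Among the other cytosolic chaperones, 1 was called higher and 4 lower in the second set, and 9 were not called. Hsp90aa1, the stress-responsive HSP90, had 1260, 1459 and 1499 CPM in BiTS, BiTS(mut) and isotype of the second set, against 1019, 975 and 999 CPM in the first, with a log2 fold change of 0.54 ± 0.07. Its values in the 2 sets did not overlap, and it moved in the opposite direction to the pair. Dnajb1, the J protein that partners inducible HSP70, had 83.1, 78.5 and 75.7 CPM in the second set, against 127.4, 127.3 and 101.8 CPM in the first (-0.53 ± 0.07). Dnajb4, another J protein of the cytosol, had 14.2, 12.9 and 14.4 CPM in the second set, against 26.5, 25.3 and 22.3 CPM in the first (-0.79 ± 0.12). In both J proteins each second-set library lay below each first-set library. The sets lay apart in 4 of the 14 other cytosolic chaperones and in 8 of the 14 ER chaperones and folding enzymes. Among the latter were Hspa5 and Hyou1, which were not called. The share of all tested genes with the sets apart was not computed, so nothing is read from such a separation. Hspa4l and the HSP70 co-chaperone Bag3 were the other genes called lower, at -0.58 ± 0.09 and -0.36 ± 0.11.

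The abundant constitutive genes hardly moved. Hspa8 had 1988, 2046 and 2258 CPM in BiTS, BiTS(mut) and isotype of the second set, against 2090, 2001 and 1978 CPM in the first, and the sets overlapped (0.10 ± 0.07). Hsp90ab1 had 4587, 4521 and 4648 CPM in the second set, against 4816, 4535 and 4302 CPM in the first, again with overlap (0.06 ± 0.06). Hsph1 and Hspa4, nucleotide exchange factors of the HSP110 family, and the HSP90 co-chaperones Stip1, Ahsa1 and Chordc1 were between -0.03 and 0.16 on the log2 scale and were not called, nor was the J protein Dnaja1. Of the heat shock factors, Hsf1 was called higher (73.3, 77.0 and 78.3 CPM in the second set, against 66.8, 62.0 and 62.0 CPM in the first) and Hsf2, a related factor, lower (28.0, 28.9 and 27.9 CPM, against 37.6, 35.6 and 42.0 CPM). Their log2 fold changes were 0.31 ± 0.08 and -0.39 ± 0.09. In the mitochondrial chaperonin, Hspe1 was called higher (0.36 ± 0.07) and Hspd1 was not called (0.15 ± 0.07).

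In the ER class, 2 of 14 genes were called higher and 6 lower in the second set, most by small amounts. Hspa5, the central ER chaperone, had 477, 521 and 552 CPM in BiTS, BiTS(mut) and isotype of the second set, against 554, 566 and 561 CPM in the first, and was not called (-0.07 ± 0.07). Canx had 301, 307 and 326 CPM in the second set, against 412, 397 and 366 CPM in the first (-0.28 ± 0.07). Its partner lectin Calr, the disulphide isomerases Pdia3 and Pdia6, and Hsp90b1 were called lower, at -0.16 to -0.23. Of 14 alternative fits, Canx kept its call in 13, Calr, Pdia3 and Pdia6 in 10 each and Hsp90b1 in 8. The calls of Calr, Pdia3, Pdia6 and Hsp90b1 were lost when any BiTS or BiTS(mut) library was left out. Sdf2l1 and Manf, small ER stress-induced proteins, were called higher at 0.22 ± 0.08 and 0.19 ± 0.07. In both genes the sets overlapped, and both calls were lost with DESeq2, with library totals and with no filter. The exception in size was Dnajb9, a J protein that works with Hspa5 and dampens Ern1, with 6.57, 7.40 and 5.85 CPM in the second set, against 11.6, 14.1 and 14.0 CPM in the first (-0.95 ± 0.15). Pdia4, Dnajb11, Dnajc3, Creld2 and Hyou1, the other ER genes not called beside Hspa5, were between -0.08 and 0.07.

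The 4 genes of ER stress and degradation had a median of -0.27, with 0 called higher and 3 lower. Herpud1, a membrane protein of the ER degradation machinery, had 94.2, 104.2 and 102.8 CPM in BiTS, BiTS(mut) and isotype of the second set, against 210.9, 228.8 and 226.0 CPM in the first (-1.09 ± 0.07). After the pair this was the largest log2 fold change of a member with more than a few counts, and it was nearly the same in each treatment, at -1.12, -1.10 and -1.06. Edem1, which hands glycoproteins to degradation, and Sel1l, the partner of the ubiquitin ligase Syvn1, were called lower at -0.30 ± 0.07 and -0.23 ± 0.07. Edem1 kept its call in all 14 alternative fits and Sel1l in 11. Xbp1, the factor spliced by Ern1, had 121.9, 128.1 and 123.6 CPM in the second set, against 122.1, 123.6 and 131.2 CPM in the first (0.04 ± 0.07). Gene counts do not show how much of it was spliced.

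**Figure D3:**
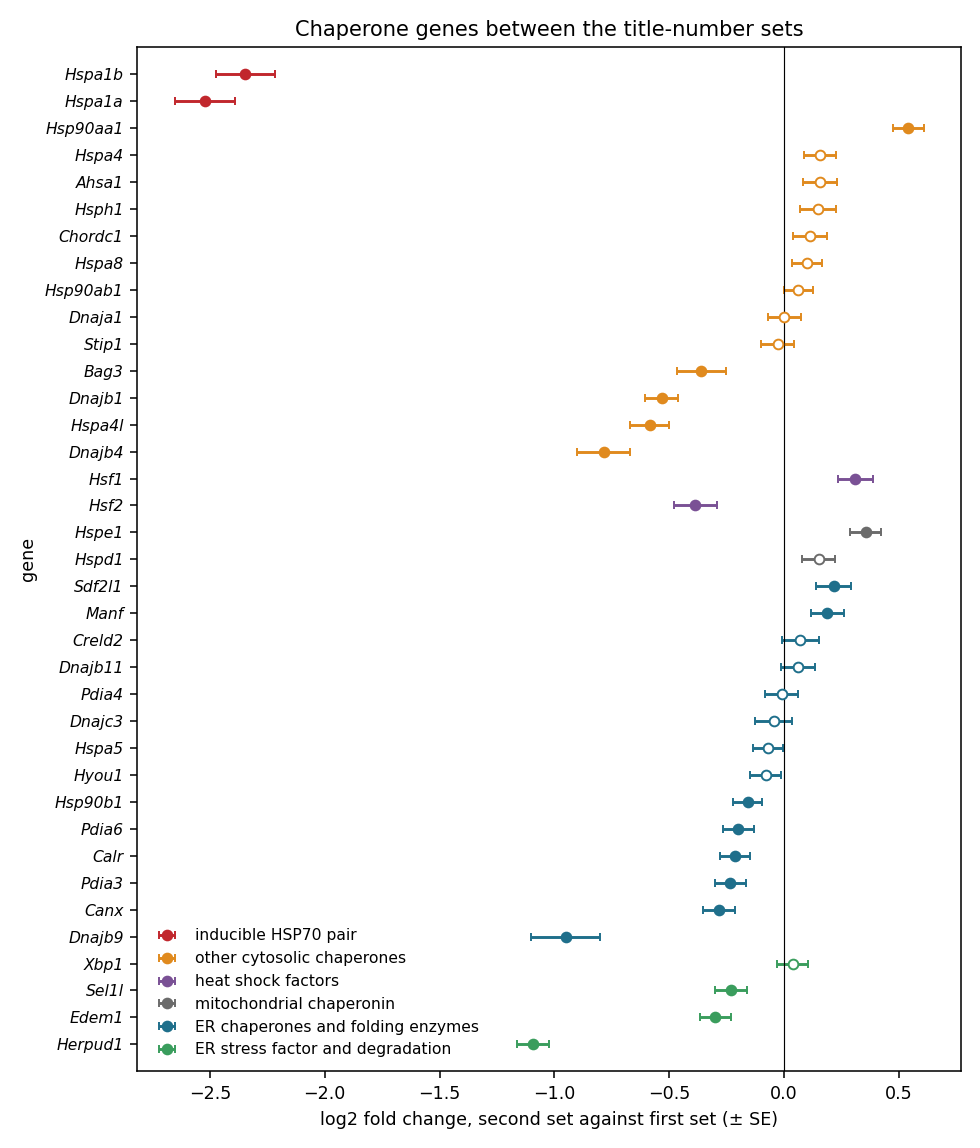
Log2 fold change of 37 genes in the second set against the first, with SE (edgeR, 3 libraries a set, treatment in the model), by class. Filled points were called at an adjusted p under 0.05 and open points were not, and Hspb1 is left out for its low counts. Hspa1a (-2.52) and Hspa1b (-2.35) lie apart from all other genes, and Hsp90aa1 (0.54) is highest.

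Of the 21 members called between the sets, 13 were called under every alternative other than scaling to spike-in transcripts, and 10 also under that one, among them Hspa1a, Hspa1b, Herpud1, Dnajb9, Dnajb4, Hspa4l and Dnajb1. Scaling to the spike-in transcripts put the median of all genes at a log2 fold change of -0.74 in the second set, against 0.02 with TMM, and the 5 genes called higher then had negative values (Hsp90aa1 -0.22, Hsf1 -0.45, Hspe1 -0.40, Sdf2l1 -0.55 and Manf -0.57). The direction of these 5 is thus relative to the other genes. Relative to that shifted median the pair was still lower, at -2.39.

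Other genes of the same pathways are given from lists likewise drawn up with earlier results known. Since 25.9% of all tested genes were called higher and 26.9% lower between the sets, nothing about a list is read from its counts of calls alone. Of the 12 sensors and effectors of the unfolded protein response, 1 was called higher and 8 lower in the second set, with a median of -0.37 against 0.02 over all genes. Atf6 had 31.4, 34.0 and 32.1 CPM in BiTS, BiTS(mut) and isotype of the second set, against 63.9, 66.7 and 59.6 CPM in the first (-0.91 ± 0.08). Eif2ak3 had 53.4, 51.1 and 46.4 CPM in the second set, against 82.5, 73.6 and 64.7 CPM in the first (-0.50 ± 0.08). Both of these sensors were lower in every second-set library, beside a median of -0.08 for the ER chaperones, and Ern1 was at -0.89 ± 0.12. Of 19 further HSP90 and HSP70 co-chaperones, 10 were called higher and 3 lower (median 0.18), led by Hspbp1 (0.83 ± 0.09) and Fkbp4 (0.62 ± 0.07). Of 14 genes of the cytosolic chaperonin TRiC and prefoldin, 7 were called higher and 2 lower (median 0.16), with Pfdn6 at 0.76 ± 0.07. Of the 20 genes of ER degradation and translocation, 4 were called higher and 10 lower (median -0.17). Of 17 immediate early genes, which also respond to handling of cells, 3 were called higher and 13 lower (median -0.53), with Fos at -1.36 ± 0.15 and Jun at -0.83 ± 0.07. Their part in the difference of the pair was not tested.

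The remaining lists were mixed. Of 7 further HSP70 and HSP110 genes, 6 were tested, with 1 called higher and 2 lower in the second set (median 0.10). Among them Hspa13, an HSP70 of microsomes, had 11.7, 12.4 and 12.2 CPM in the second set, against 22.8, 20.6 and 19.9 CPM in the first (-0.75 ± 0.12). Of 14 further J proteins, 3 were called higher and 6 lower (median -0.05), and Dnajb14 went furthest at -1.25 ± 0.11. Of 10 tested small heat shock proteins and other heat shock factor targets, 3 were called higher and 5 lower (median -0.06). Of 9 mitochondrial chaperones and proteases, 4 were called higher and 0 lower (median 0.21), with the protease Clpp at 0.72 ± 0.08. Of 18 tested ER folding, disulphide and glycan enzymes, 8 were called higher and 6 lower (median 0.17), and the oxidase Ero1l, which feeds disulphides to the isomerases, was at -0.91 ± 0.07.

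BiTS cells had more of the inducible pair than isotype cells in both sets, and no other member with more than a few counts stood near it. Hspa1a had 13.3 CPM in BiTS and 7.20 CPM in isotype of the second set, and 92.3 CPM in BiTS and 24.1 CPM in isotype of the first. The log2 differences within sets were 0.89 and 1.98 for Hspa1a, and 0.83 and 1.77 for Hspa1b. The BiTS library of the second set lay below the isotype library of the first, so the groups overlapped. By edgeR's quasi-likelihood test without a block, 0 of 38 members were called, where 0.0% of all tested genes were. No member reached an unadjusted p under 0.05 there, and 0 were called by DESeq2 or by limma-voom. With the title-number set as a block, 2 members were called, Hspa1a at 1.66 ± 0.16 and Hspa1b at 1.47 ± 0.16, where 3.4% of all tested genes were called. These SEs draw mostly on the spread of all tested genes. The within-set differences of each gene of the pair lie farther apart than its SE implies. The blocked calls of both were lost with DESeq2 and with scaling to the spike-in transcripts (log2 fold changes 1.41 and 1.27, and 1.47 and 1.32). Without BiTS replicate 1 the unblocked values turned to -0.17 and -0.15, while the blocked ones were 1.36 and 1.30, and without isotype replicate 1 the blocked ones were 0.84 and 0.71. Leaving out BiTS replicate 1 leaves BiTS with its second-set library only. The unblocked values then also hold the pair's difference between the sets.

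Apart from the pair and Hspb1, the 35 other members differed between BiTS and isotype by between -0.43 (Bag3) and 0.42 (Sel1l) in the second set and between -0.32 (Bag3) and 0.37 (Dnajb1) in the first. The class medians in the unblocked fit were 1.68 for the pair, -0.05 for the other cytosolic chaperones and -0.08 for the ER chaperones, against -0.01 over all genes. Bag3 had 15.0 CPM in BiTS and 20.4 CPM in isotype of the second set, and 20.8 CPM in BiTS and 26.9 CPM in isotype of the first, a blocked log2 fold change of -0.37 ± 0.13 that was not called. Dnajb1 had 83.1 CPM in BiTS and 75.7 CPM in isotype of the second set, and 127.4 CPM in BiTS and 101.8 CPM in isotype of the first (blocked 0.26 ± 0.09, not called). Hspa5 was at -0.20 in the second set and 0.03 in the first. Dendritic cell markers ran beside these values, with 1466 CPM in BiTS and 1554 CPM in isotype of the second set and 2456 CPM in BiTS and 3060 CPM in isotype of the first, and their part in the pair's difference was not tested. Of the 16 dendritic cell markers tested, 7 were called lower in the blocked fit and 0 without the block. The CD8 T cell markers summed to 2904 CPM in BiTS and 2700 CPM in isotype of the second set. In the first set they summed to 2639 CPM in BiTS and 2239 CPM in isotype. Of these 10 markers, Lck, Cd8b1 and Cd8a were called higher in the blocked fit and 0 without the block, and their part was not tested either. Among the sensors and effectors of the unfolded protein response, 0 of 12 were called without the block and 2 were called higher in the blocked fit, where 3.4% of all tested genes were called. They were the stress factor Ddit3 (CHOP, 0.51 ± 0.09) and the phosphatase subunit Ppp1r15a (0.42 ± 0.10), both genes of the integrated stress response. Of the 17 immediate early genes 0 were called without the block, and Egr1 (-0.61 ± 0.11) and Egr2 (-0.88 ± 0.20) were called lower with it.

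**Figure D4:**
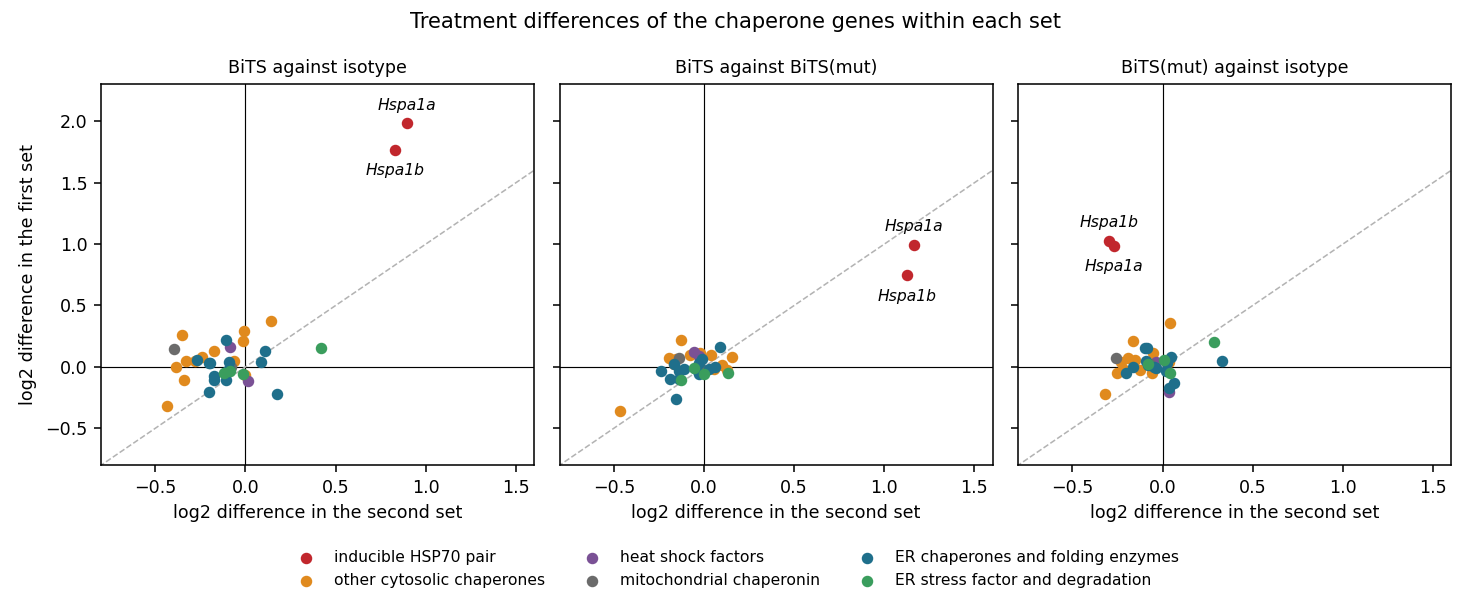
Log2 difference of TMM-scaled CPM between treatments for 37 genes, coloured by class, in the second set (x axis) and in the first set (y axis), with equality as a dashed line; Hspb1 is left out for its low counts. The panels share libraries. Hspa1a and Hspa1b lie in the upper right for BiTS against isotype (0.89 and 1.98 for Hspa1a) and BiTS against BiTS(mut), and in the upper left for BiTS(mut) against isotype.

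BiTS was also above BiTS(mut) for the pair in both sets. Hspa1a had 13.3 CPM in BiTS and 6.02 CPM in BiTS(mut) of the second set, and 92.3 CPM in BiTS and 46.7 CPM in BiTS(mut) of the first. The log2 differences were 1.16 and 0.997 for Hspa1a and 1.13 and 0.74 for Hspa1b in the second and first set. Without a block 0 of 38 members were called by edgeR, DESeq2 or limma-voom, where 0.0% of all tested genes were called by edgeR, and none reached an unadjusted p under 0.05. With the block the pair was called, at 1.02 ± 0.14 for Hspa1a and 0.84 ± 0.14 for Hspa1b, where 0.972% of all tested genes were. DESeq2 with the block and spike-in scaling with the block called neither, and the blocked calls of both were lost without BiTS replicate 1 (0.74 and 0.68) and that of Hspa1b also without BiTS(mut) replicate 2 (0.61). Unblocked, the values without BiTS replicate 1 were -0.95 and -0.93, and these also hold the pair's difference between the sets. The 35 other members lay between -0.47 (Bag3) and 0.16 (Dnajb4) in the second set and between -0.36 (Bag3) and 0.22 (Hsph1) in the first. Dendritic cell markers summed to 1466 CPM in BiTS and 1646 CPM in BiTS(mut) of the second set and to 2456 CPM in BiTS and 2997 CPM in BiTS(mut) of the first. Of the 16 tested, 6 were called lower in the blocked fit and 0 without the block, and their part in the pair's difference was not tested. The CD8 T cell markers summed to 2904 CPM in BiTS and 2707 CPM in BiTS(mut) of the second set. In the first set they summed to 2639 CPM in BiTS and 2332 CPM in BiTS(mut), and 0 of these markers were called in either fit. BiTS against BiTS(mut) and BiTS against isotype share the BiTS libraries, so their likeness is not independent.

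Between BiTS(mut) and isotype the pair differed in opposite directions in the sets. Hspa1a had 6.02 CPM in BiTS(mut) and 7.20 CPM in isotype of the second set, and 46.7 CPM in BiTS(mut) and 24.1 CPM in isotype of the first. Hspa1b had 7.08 CPM in BiTS(mut) and 8.65 CPM in isotype of the second set, and 52.6 CPM in BiTS(mut) and 26.6 CPM in isotype of the first. For Hspa1a in the second set the 95% counting intervals of the libraries overlapped, at 4.80 to 7.56 CPM in BiTS(mut) and 5.79 to 8.97 CPM in isotype, while in the first set they lay apart, at 43.4 to 50.2 CPM in BiTS(mut) and 21.5 to 27.1 CPM in isotype. The edgeR test called 0 of 38 members without a block, where 0.0% of all tested genes were called, and 0 with the block, where 0.05% were. At an unadjusted p under 0.05 in the edgeR test there were 0 members without the block and 5 with it, and DESeq2 called 0 in both. The 5 were Dnajb1, Ahsa1, Sel1l and the pair. The blocked log2 fold changes of the pair had a median of 0.63, although its differences within the sets had opposite signs. The 35 other members ran from -0.32 (Ahsa1) to 0.33 (Dnajb9) in the second set and from -0.22 (Ahsa1) to 0.36 (Dnajb1) in the first.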

How the data were processed

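The deposited values are raw read counts per gene, made by the authors, in 1 table per library with gene coordinates and lengths per the file headers. The submitters' processing notes name mm10 and DESeq2. No source used here names the aligner, the counter, its strand setting or the annotation, and reads of overlapping genes on opposite strands cannot be told apart.

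The members and lists were chosen with earlier results of these data known. All 38 members are named, and of the other lists at most 4 called genes each. Identifiers were matched to symbols in GENCODE M21 (49412 of 49671). The 92 spike-in transcripts, 3.36% to 7.54% of all counts, were left out of gene totals and tests. Counts were TMM-scaled, filtered with filterByExpr and tested with edgeR 4.0.16 (quasi-likelihood, two-sided, Benjamini-Hochberg over 13996 genes, limma 3.58.1, R 4.3.3), all 6 libraries together, with adjusted p under 0.05 as the threshold for a call. Treatments were compared with 1 coefficient per group and no block, and the sets with treatment in the model. The SE of a log2 fold change is its size over the square root of the test's F. That F uses a spread moderated over all tested genes, so the SE does not measure a gene's own spread between libraries. Within-set differences are log2 ratios of TMM-scaled CPM.

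The pairing of libraries by set comes from the title numbers, not from a stated design. Within a set, the libraries' deviations from their group means had pairwise correlations of 0.70, 0.76 and 0.78. With 2 libraries a group each second-set library mirrors its first-set partner, so only these 3 are distinct. The blocked fit has 2 residual degrees of freedom (3 without the block) and 45.9 prior ones (3.14 without). Alternatives were RLE size factors, library totals, spike-in scaling, no filter, a CPM of at least 5 in 2 libraries, DESeq2 1.42.0, limma-voom, only the 4 libraries compared, the block and leaving out each library. Promoters and transcripts came from RefSeq and GENCODE tables. Shares over all genes count a motif at any RefSeq start. For the members the start used was the RefSeq start nearest the gene's start in the counts table, and the bases after it were found in a GENCODE transcript for 28 of 32 genes. No protein sequence was used here.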

Additional observations from a re-analysis of the deposited data

Results flagged for a closer look

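In 3 cases a member's difference between treatments had opposite signs in the 2 sets, with at least 0.2 on the log2 scale in each. Each set holds 1 library per treatment, so the difference between the sets was not tested. Hspa1a was at -0.27 for BiTS(mut) against isotype in the second set and at 0.99 in the first. Hspa1b was at -0.30 in the second set and 1.02 in the first for the same comparison, and it shares reads with Hspa1a. Hsph1, a nucleotide exchange factor of HSP70, was at -0.35 for BiTS against isotype in the second set and at 0.26 in the first, with 101.7 CPM in BiTS and 130.7 CPM in isotype of the second set, and 117.6 CPM in BiTS and 101.8 CPM in isotype of the first.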

How the results depend on the processing

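With the replicate block, 2 members were called for BiTS against isotype and 2 for BiTS against BiTS(mut), also with RLE size factors or no filter beside the block, and 0 with DESeq2 or spike-in scaling beside it; without the block, 2 were called for BiTS against isotype with no filter. For BiTS(mut) against isotype the block called 0, and 2 with no filter. Leaving out 1 library, the unblocked counts were 0 in these 3 comparisons, and the blocked counts ran from 2 to 6 for BiTS against isotype (6 without isotype replicate 1, 4 without isotype replicate 4), from 0 to 3 for BiTS against BiTS(mut) (0 without BiTS replicate 1, 1 without BiTS(mut) replicate 2, 3 without isotype replicate 4) and from 0 to 2 for BiTS(mut) against isotype (1 without isotype replicate 1, 2 without either BiTS library, BiTS(mut) replicate 2 or isotype replicate 4). Between the sets the count ran from 13 (without BiTS(mut) replicate 2) to 21, against 21 with all libraries.

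Without BiTS replicate 1 and without the block, Hspa1a and Hspa1b turned to -0.17 and -0.15 for BiTS against isotype and to -0.95 and -0.93 for BiTS against BiTS(mut), and without BiTS(mut) replicate 2 Hspa1b turned to -0.01 against BiTS(mut). Leaving out isotype replicate 1 gave 2.85 and 2.55 against isotype, and leaving out BiTS(mut) replicate 1 gave 3.13 and 2.86 against BiTS(mut), the upper ends for Hspa1a and Hspa1b. Each of these unblocked fits leaves the sets unequal between the groups compared. Their values thus also hold the pair's difference between the sets and do not measure the treatment difference alone. The unblocked medians of the pair ran from -0.16 to 2.70 for BiTS against isotype, from -0.94 to 2.99 for BiTS against BiTS(mut) and from -1.31 to 1.80 for BiTS(mut) against isotype. Those of the ER chaperones ran from -0.14 to 0.030, from -0.13 to 0.027 and from -0.073 to 0.039, and from -0.13 to -0.038 between the sets. Those of the other cytosolic chaperones ran from -0.071 to 0.066 for BiTS against BiTS(mut).

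Spike-in scaling moved the medians between the sets to -3.14 for the pair, -0.73 for the other cytosolic chaperones and -0.84 for the ER chaperones, all relative to a median of -0.74 over all genes. Hsp90aa1 (-0.22), Hsf1 (-0.45), Hspe1 (-0.40), Sdf2l1 (-0.55) and Manf (-0.57) reversed. For BiTS against BiTS(mut) it gave 0.096 for the other cytosolic and 0.035 for the ER chaperones, beside 0.09 over all genes. Library totals gave 3066 genes higher and 4223 lower between the sets, against 3618 and 3764 with TMM. Causes were not tested beyond what each alternative changes. Hspb1, with 2 to 15 counts a library, was called between the sets under spike-in scaling and in no other fit, and depth limits what these libraries can show of it.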
